A study of Mus musculus with 8 samples.

Results

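The genes described here are the splicing factors and heterogeneous nuclear ribonucleoproteins (hnRNPs) measured in murine splenic T cells, 44 genes of the 12393 with a probe set of a single gene symbol. They were chosen by symbol alone: all genes whose symbol starts with Srsf and a digit, Snrp, Sf3a, Sf3b or Hnrnp, each taken from the probe set whose mean log2 signal over the 8 arrays was highest. They comprise 9 Srsf, 8 Snrp, 9 Sf3 and 18 Hnrnp genes. RNA was measured on 8 Affymetrix MOE430A_2.0 arrays, which carry sets of short probes against mouse transcripts. For each time 1 array was hybridised for Gfi1-knockout and wild-type C57Bl/6 mice at 0 h (no antibody) and after 4, 8 and 24 h of culture with antibodies to CD3 and CD28 (2 µg/ml), which stimulate T cells through their antigen receptor and its costimulatory receptor. Splenocytes of both genotypes had been enriched for T cells magnetically with a pan-T cell kit. The titles carry the number 501 on all 4 knockout arrays and 502 on all 4 wild-type arrays, so genotype coincides with a single numbered source, and the labels do not say whether that is 1 mouse. The promoter or deletion used for the knockout and the age of the mice are not given there. No array holds cells cultured without the antibodies, so the effects of antibody and of time in culture cannot be told apart. With 1 array per genotype and time, a difference between genotypes has no replicate check and carries no p-value.

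Splicing removes introns from pre-mRNA in the spliceosome, which is built from small nuclear ribonucleoproteins (snRNPs) named after their U-rich RNAs. The U1 snRNP binds the start of an intron and the U2 snRNP, with its SF3a and SF3b complexes, the branch point. The ring of Sm proteins is common to the U1, U2, U4 and U5 snRNPs. SR proteins bind exonic enhancers and promote the use of nearby splice sites, whereas many hnRNPs bind nascent RNA and oppose it. In T cells, alternative splicing of the receptor phosphatase CD45 after activation is a textbook case, and Hnrnpll and Hnrnpl are known to repress the variable exons of CD45.

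All but 1 of the genes were readily measured. The floor, under which a signal was treated as not measurable, was 141.88, and 43 of the 44 genes were above it on all 8 arrays, with signals of 514 to 28403. The exception was Snrpn, an imprinted gene that encodes the SmB-like protein SmN of brain and heart. Its signals were 7.8, 22, 12.7 and 89.5 in the knockout-labelled arrays (0, 4, 8 and 24 h) and 92.4, 63.2, 13 and 16.1 in their wild-type-labelled counterparts, all under the floor, and it was not tested. Another 4 probe sets list Snrpn together with a further symbol and were left out by the rule, so these signals do not settle its level. For the other 43, the highest signal over the 8 arrays was 1.31 to 4.03 times the lowest (median 1.75), and it was less than 2-fold the lowest in 33. Signals of different probe sets depend on the probes and are not compared between genes.

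The arrays differed in the signals of cell type marker genes and in technical measures. Gfi1, the zinc finger repressor, had signals of 2316 to 9885 in the knockout-labelled arrays and 882 to 6359 in the wild-type-labelled ones. The labels do not place its probe set relative to the deletion, so Gfi1 does not check them. T cell identity genes (12 measured, all above the floor on every array) had a summed signal of 25324 to 61949 in the knockout-labelled arrays, against 66664 to 92529 in the wild-type-labelled arrays. Granulocyte precursor genes (13 measured) summed to 6688 to 177056 in the knockout-labelled arrays, against 1006 to 16918 in the wild-type-labelled arrays, and monocyte genes (9) to 30328 to 75824 in the knockout-labelled arrays, against 5081 to 17625 in the wild-type-labelled arrays. Proliferation genes (11) summed to 7942 to 49999.8 in the knockout-labelled arrays, against 7550.2 to 21071 in the wild-type-labelled arrays. B cell genes (9) summed to 685 to 3228 in the knockout-labelled arrays and 1306 to 5888 in the wild-type-labelled arrays, with Pax5 and Ebf1 under the floor on all 8, and red cell genes (6) to 729 to 12684 in the knockout-labelled arrays and 1159.8 to 8771 in the wild-type-labelled arrays, with Hba-a1 under the floor on all 8. The median signal of all probe sets was 272 and 224 at 24 h in the knockout- and wild-type-labelled arrays, and 18S ribosomal RNA, read by its 5' control probes, gave 37640.2 and 4487 in the same arrays. The part of these measures in the results on the splicing genes was not tested.

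Over the time course, none of the genes passed the test when both genotypes were combined, with log2 changes from 0 h of -0.91 to 1.27. The model (limma, time and genotype, Benjamini-Hochberg adjustment over all 15062 tested probe sets, called at an adjusted p under 0.05 and at least 2-fold) treats the unequal response of the genotypes as the error, so its p-values measure the spread between these samples only. From 0 to 4 h, limma called 0 of the 43 genes, where 0.807% of all 8430 tested genes rose and 0.605% fell. At 8 h it was again 0 of 43, against 1.19% of all genes that rose and 1.23% that fell, and at 24 h 0 of 43, against 1.49% and 2.47%. From 8 to 24 h no member was called, and 0% of all genes were called in either direction. At an unadjusted p under 0.05 there were 0, 2 and 7 members at 4, 8 and 24 h against 0 h, and 0 between 8 and 24 h, where 14.4%, 20.2%, 21.9% and 9.06% of all genes were under it. The median log2 change of the 43 genes from 0 h was -0.02, 0.15 and 0.09 at 4, 8 and 24 h, beside -0.10, -0.11 and -0.07 for all tested genes. The standard errors of the members' log2 changes ran from 0.20 to 0.55.

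The lowest adjusted p-values of the members were those for 24 h against 0 h. Hnrnpa1, a repressor of exon inclusion that antagonises SR proteins, had signals of 4885, 5364, 5886 and 11259 in the knockout-labelled arrays (0, 4, 8 and 24 h) and 6069, 8173, 9550.4 and 9722 in their wild-type-labelled counterparts. Its log2 change from 0 to 24 h was 0.94 (SE 0.27, limma adjusted p = 0.115), the lowest adjusted p among the members, and both 24 h arrays were the highest of their genotype. This holds for the probe set in use. Of the 3 tested probe sets of Hnrnpa1, 2 rose from 0 to 24 h in each genotype. The lowest log2 changes among them were -1.095 (knockout) and -0.54 (wild type). Snrpa1, the U2 A' protein that binds U2 RNA together with Snrpb2, had the largest estimate, 1.27 (SE 0.38, limma adjusted p = 0.124). Without the knockout-labelled 24 h array Snrpa1 passed (limma adjusted p = 0.0425), and without the wild-type-labelled 24 h array Hnrnpa1 passed (limma adjusted p = 0.0315). Over all alternatives their limma adjusted p was 0.0315 to 0.360 for Hnrnpa1 and 0.0425 to 0.454 for Snrpa1. Hnrnpdl, a relative of the AU-rich element binding protein Hnrnpd, had the lowest adjusted p at 8 h (log2 change 0.65, SE 0.25, limma adjusted p = 0.217). Its signals were 11289.8, 13685, 16689 and 20613 in the knockout-labelled arrays (0, 4, 8 and 24 h) and 15694, 23139, 26257 and 21466 in their wild-type-labelled counterparts, so that all 3 stimulated arrays of each genotype were above the 0 h array. Of the 6 tested probe sets of Hnrnpdl, 5 rose from 0 to 24 h in each genotype. At 24 h the other estimates with an unadjusted p under 0.05 were positive for Snrpc (0.73), Hnrnpdl (0.66), Sf3b5 (0.58) and Sf3b6 (0.52), and negative for Hnrnpul2 (-0.75). Hnrnpul2, a relative of the chromatin-bound Hnrnpu, had signals of 2296, 2098, 1561 and 1257 in the knockout-labelled arrays (0, 4, 8 and 24 h) and 2099.6, 1743, 1706 and 1355 in their wild-type-labelled counterparts, with the 24 h array the lowest in both genotypes. The second tested probe set of Hnrnpul2 had log2 changes from 0 to 24 h of 0.25 (knockout) and -0.07 (wild type).

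In the signals as deposited, the time courses of the genotypes were unlike. The stimulated wild-type-labelled arrays lay above their 0 h array for most genes, and the knockout-labelled arrays did not. In the wild-type-labelled arrays the median log2 change of the 43 genes was 0.10, 0.28 and 0.38 at 4, 8 and 24 h, beside -0.10, -0.06 and -0.06 for all tested genes. In the knockout-labelled arrays it was -0.05, -0.03 and -0.01 at the same times, beside -0.06, -0.11 and -0.04 for all genes. These knockout medians have no settled sign, since at 24 h quantile normalization gave -0.15 and dividing each array by its own median (median scaling) gave 0.16. The wild-type medians were positive under both scalings, 0.35 and 0.81 at 24 h. Higher than at 0 h were 20, 19 and 21 of 43 genes in the knockout-labelled arrays at 4, 8 and 24 h, where 39.2%, 36.5% and 44.8% of all genes were higher. In the wild-type-labelled arrays 27, 31 and 31 were higher, where 38.4%, 42.4% and 39.6% of all genes were. After quantile normalization the counts at 24 h were 12 (knockout) and 28 (wild type), and after median scaling 25 and 40. At 8 h they were 16 and 27 after quantile normalization, and 34 and 37 after median scaling. At 4 h they were 13 and 22 after quantile normalization, and 24 and 36 after median scaling. Whether most genes were above 0 h in the knockout-labelled arrays thus depended on the scaling. By size, 3 genes were at least 1.5-fold higher and 8 at least 1.5-fold lower than at 0 h in the knockout-labelled 24 h array, against backgrounds of 17.8% and 25.1% of all genes. In the wild-type-labelled 24 h array 12 were at least 1.5-fold higher and 2 lower, against 16.3% and 26.3%. The wild-type-labelled 24 h array was the highest of the 8 for 15 genes and the lowest for 0, and the knockout-labelled 24 h array the highest for 1 and the lowest for 11.

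**Figure D1:**
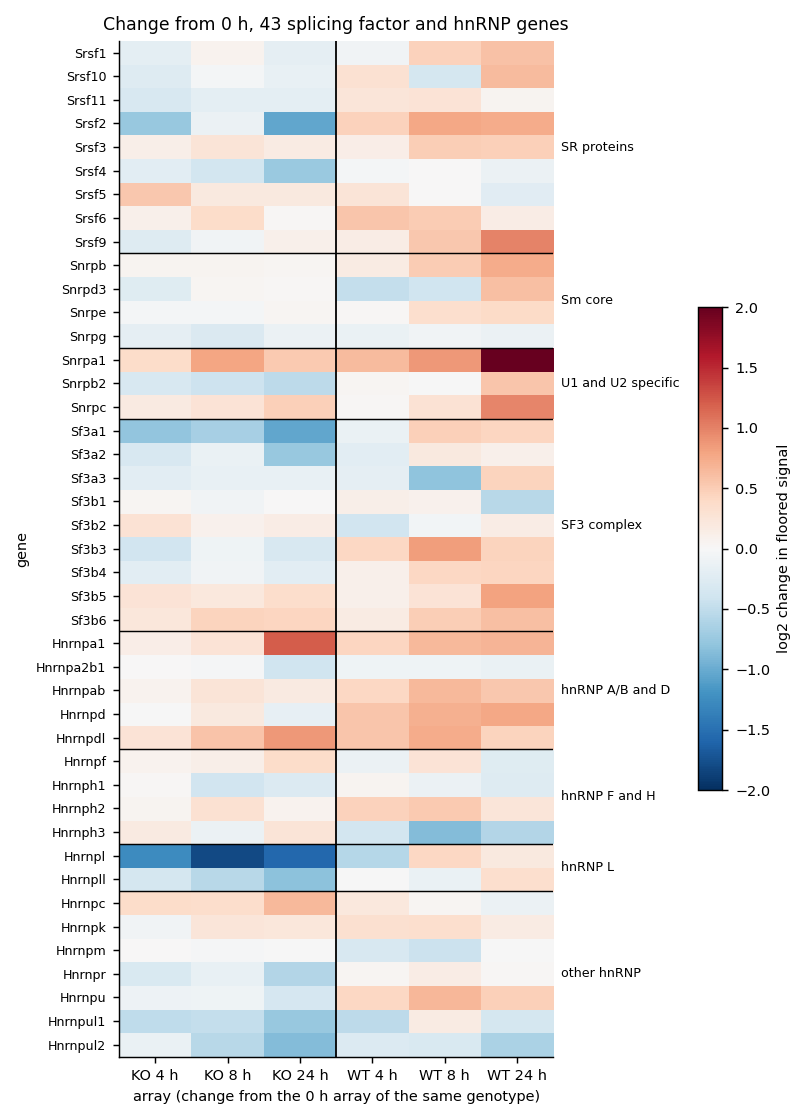
Log2 change in floored signal from the 0 h array of the same genotype, 1 row per gene (43 genes in 8 role groups), 3 columns for the knockout-labelled arrays (KO) and 3 for the wild-type-labelled arrays (WT), red for higher and blue for lower. In the WT 24 h column 31 genes are above 0, and in the KO 24 h column 21.

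At 24 h the knockout-labelled array was lower than the wild-type-labelled array for most of the genes, by a modest amount. The median difference in log2 signal, knockout minus wild type, was -0.03, -0.14, -0.29 and -0.38 at 0, 4, 8 and 24 h, beside 0, 0, -0.08 and 0 for all tested genes. In bulk RNA, fewer cells of a type and less RNA per cell cannot be told apart. Lower in the knockout-labelled array were 22, 29, 34 and 38 of 43 genes at 0, 4, 8 and 24 h, where the share of all genes that was lower was 48.5%, 49.3%, 54.4% and 45.7%. At 0 h the median turned to 0.05 after quantile normalization, while at 24 h it was -0.45 after quantile normalization and -0.65 after median scaling, a scaling that moved all genes by -0.19 and leaves -0.46 relative to them. Under these scalings 39 and 42 of 43 genes were lower at 24 h, where 51.0% and 61.4% of all genes were. At 4 h the count lower was 36 after median scaling, where 56.7% of all genes were lower. After quantile normalization it was 27, where 51.0% of all genes were lower, and the median at 4 h was -0.07.

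Few of the genes differed by much at any time. At least 2-fold apart were 1 gene at 0 h (Hnrnpl, higher in the knockout-labelled array) and 1 at 24 h (Snrpa1, lower), and none at 4 or 8 h. The share of all genes at least 2-fold higher was 8%, 11.7%, 10.7% and 9.15% at 0, 4, 8 and 24 h, and the share at least 2-fold lower 6.79%, 6.56%, 6.69% and 5.05%. At 1.5-fold, 5, 0, 0 and 0 genes were higher, against 17.3%, 20.6%, 18.2% and 18.2% of all genes, and 4, 6, 7 and 12 were lower, against 17%, 17.5%, 20.6% and 15%. The 12 of 24 h are 27.9% of the 43. After quantile normalization they were 8 genes, near the 17.1% of all genes, and after median scaling 26 genes, where 27.4% of all genes passed. No gene was at least 2-fold apart in the same direction at all 4 times, where 1.85% of all genes were higher and 0.166% lower. In any size, 11 genes were lower and 0 higher in knockout at all 4 times, against 14.3% and 13% of all genes. These counts rest on the probe set taken for each gene, and Srsf3, Srsf6, Sf3b6 and Hnrnpr each had another that was higher at 0 h.

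The marker lists also differed between the genotypes. The median difference of the T cell identity genes, knockout minus wild type in log2, was -1.68, -1.64, -1.53 and -0.24 at 0, 4, 8 and 24 h. That of the granulocyte precursor genes was 3.40, 4.34, 4.34 and 1.35, and that of the monocyte genes 1.93, 3.78, 3.91 and 3.26. The B cell list had -0.53, -0.50, -0.65 and 0, and the red cell list 0.70, -0.06, 0.17 and -0.56. Several of the 24 h medians depend on the floor. At or under it at 24 h were 3 (knockout) and 12 (wild type) of 13 granulocyte precursor genes. For the 9 B cell genes these were 8 and 6, for the 9 monocyte genes 0 and 5, and for the 6 red cell genes 4 and 3. The proliferation genes had 1.21, 2.57 and 2.29 at 0, 4 and 8 h and -0.94 at 24 h, lower in the knockout-labelled array for 10 of 11 genes at that time. The part of these lists in the differences of the splicing genes was not tested.

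**Figure D2:**
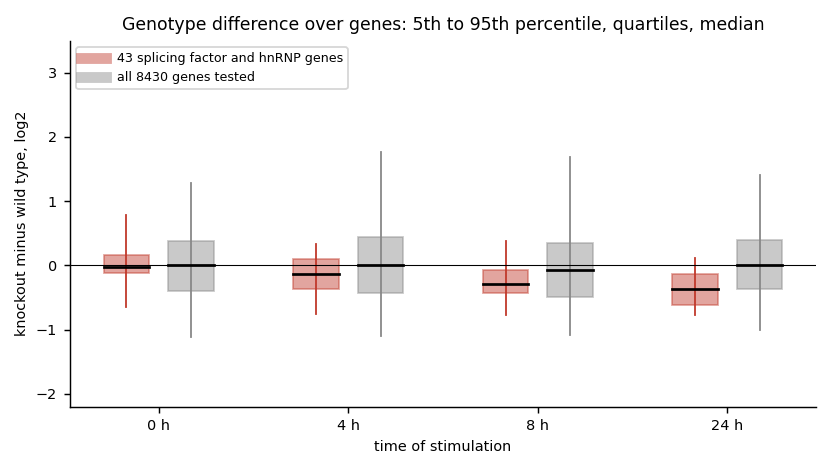
Knockout minus wild type in log2 floored signal at 0, 4, 8 and 24 h for the 43 splicing factor and hnRNP genes (red) and all 8430 tested genes (grey); boxes span the quartiles, thin lines the 5th to 95th percentile and thick lines mark the median. The median of the 43 genes goes through -0.03, -0.14, -0.29 and -0.38, and that of all genes is between -0.08 and 0.

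The difference in response, which is the change from 0 h in knockout less the change in wild type, was on the negative side for most of the genes at 24 h. Its median was -0.11, -0.26 and -0.41 at 4, 8 and 24 h for the 43 genes, beside 0.04, -0.03 and 0.04 for all genes. It shares the 24 h and 0 h arrays with the comparisons above and adds no independent evidence to them. At least 2-fold lower were Srsf2 at 4 h, Sf3a1 and Hnrnpl at 8 h, and 6 genes at 24 h (Hnrnpl, Hnrnpll, Sf3a1, Snrpa1, Snrpb2 and Srsf2), against 5.91%, 8.28% and 13% of all genes. None was at least 2-fold higher, against 8.21%, 9.62% and 15.3%. Each of these calls rests on the probe set that stands for the gene. Below 0 at 24 h were 34 of 43 genes, where 46.5% of all genes were.

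Snrpa1 had the largest difference between genotypes at 24 h among the 43 genes. Its U2 snRNP partner Snrpb2 was also lower by at least 1.5-fold, in the brighter of its probe sets only. Snrpa1 had signals of 2572, 3330.2, 4431 and 3692 in the knockout-labelled arrays (0, 4, 8 and 24 h) and 2542, 3958, 4630.1 and 10241 in their wild-type-labelled counterparts. In this probe set the genotypes were close up to 8 h, and at 24 h the wild-type-labelled array was more than 2-fold above any other array of the gene. The difference, knockout minus wild type, was 0.02, -0.25, -0.06 and -1.47 in log2 at 0, 4, 8 and 24 h. The other 2 probe sets already differed at 8 h, by -0.43 and -0.89, and their wild-type-labelled signals at 24 h were 7278 and 5828, the highest of each, against 4723 and 4988 at 8 h. Snrpb2, the U2 B'' protein, had signals of 6839, 5451, 5143 and 4744 in the knockout-labelled arrays (0, 4, 8 and 24 h) and 5523, 5696, 5479.7 and 8119 in their wild-type-labelled counterparts. Here the knockout-labelled array was higher at 0 h and became lower at 24 h (-0.78), with the highest signal again in the wild-type-labelled 24 h array. Snrpc, the U1-C protein of the U1 snRNP, had 4017, 4565, 4859 and 5600.0 in the knockout-labelled arrays (0, 4, 8 and 24 h) and 3652, 3720.1, 4457 and 7173 in their wild-type-labelled counterparts, and in both genotypes the 24 h array was the highest. The 3 U1 and U2 proteins had a median difference at 24 h of -0.78 (-0.70 after quantile normalization and -1.05 after median scaling), and all 3 were lower.

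The Sm core proteins form the ring that assembles on snRNAs in the cytoplasm. The 4 measured subunits all had a lower signal in the knockout-labelled 24 h array, with a median of -0.46 (-0.57 after quantile normalization and -0.74 after median scaling). Snrpb, which encodes SmB, had signals of 5519.5, 5753, 5747 and 5664 in the knockout-labelled arrays (0, 4, 8 and 24 h) and 5789, 6493, 8198 and 9684 in their wild-type-labelled counterparts. The knockout-labelled arrays were level over time and the wild-type-labelled arrays were higher at each later time, so that the difference was -0.07, -0.17, -0.51 and -0.77. Snrpd3 had 6823, 5780.5, 7016 and 6959.7 in the knockout-labelled arrays (0, 4, 8 and 24 h) and 7071, 5092, 5359.9 and 10675 in their wild-type-labelled counterparts, lower in the wild-type-labelled arrays at 4 and 8 h than at 0 h and highest there at 24 h. The differences were 0.03, -0.04, -0.36 and -0.30 for Snrpe and -0.09, -0.14, -0.31 and -0.10 for Snrpg, and none of these reached 1.5-fold.

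Promoters are shown for 4 genes of the U2 pair and the SR proteins that were lower in knockout by at least 1.5-fold at 24 h, and were picked with these values known. They are the 250 bases before the RefSeq start site (assembly GRCm38.p6), 5' to 3' on the strand of the gene, at chr7:66060086-66060335 (plus strand) for Snrpa1, chr2:143062819-143063068 (plus strand) for Snrpb2, chr11:116853095-116853344 (minus strand) for Srsf2 and chr4:135855821-135856070 (plus strand) for Srsf10. Capitals mark matches on either strand to 5 promoter motifs.
Snrpa1: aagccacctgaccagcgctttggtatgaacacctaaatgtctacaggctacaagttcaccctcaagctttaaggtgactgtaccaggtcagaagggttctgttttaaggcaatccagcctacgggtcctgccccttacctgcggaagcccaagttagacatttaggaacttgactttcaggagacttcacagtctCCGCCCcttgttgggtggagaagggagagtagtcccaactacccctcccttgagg
Snrpb2: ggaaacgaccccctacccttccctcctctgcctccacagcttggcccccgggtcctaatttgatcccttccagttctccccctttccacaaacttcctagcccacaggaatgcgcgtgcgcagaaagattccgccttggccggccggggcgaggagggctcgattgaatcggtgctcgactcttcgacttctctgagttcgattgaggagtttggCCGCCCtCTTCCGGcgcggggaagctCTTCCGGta
Srsf2: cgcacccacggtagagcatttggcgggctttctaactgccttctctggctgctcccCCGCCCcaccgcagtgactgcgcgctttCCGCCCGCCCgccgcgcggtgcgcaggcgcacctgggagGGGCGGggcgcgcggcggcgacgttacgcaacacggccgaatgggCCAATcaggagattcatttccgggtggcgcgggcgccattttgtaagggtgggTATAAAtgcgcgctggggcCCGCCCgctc
Srsf10: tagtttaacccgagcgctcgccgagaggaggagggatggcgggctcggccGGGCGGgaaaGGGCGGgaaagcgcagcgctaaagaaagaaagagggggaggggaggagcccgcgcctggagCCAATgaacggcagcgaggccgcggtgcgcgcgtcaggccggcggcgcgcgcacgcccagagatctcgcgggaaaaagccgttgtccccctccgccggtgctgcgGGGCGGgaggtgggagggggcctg
Snrpa1 holds 1 GC box. Snrpb2 holds 1 GC box and 2 ETS motifs next to the start. Srsf2 holds 5 GC boxes, 2 of which overlap each other, with 1 CCAAT and 1 TATA box. Srsf10 holds 3 GC boxes and 1 CCAAT box.

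Such windows were found for 39 of the 44 genes, 55 windows among 32851 of all genes. The GC box, searched as GGGCGG, was in 65.5% of the members' windows and 32.7% of all windows. The ETS motif, searched as CCGGAAG, was in 32.7% of the members' windows and 6.91% of all. The CCAAT box was searched by those 5 letters and was in 43.6% of the members' windows and 33.8% of all. The TATA box, searched as TATAAA, was in 9.09% of the members' windows and 12.4% of all. The E-box, searched as CACGTG, was in 3.64% of the members' windows and 6.02% of all. Of the 12 genes lower in knockout by at least 1.5-fold at 24 h, 11 had a window, 9 of them with a GC box and 5 with an ETS motif. Over all 39 genes these were 27 and 14. A gene can have several windows, and a match describes letters, not binding.

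Among the SR proteins, all 9 had a lower signal in the knockout-labelled 24 h array, with a median difference of -0.47 and single values of -0.85 (Srsf2) to -0.14 (Srsf9). At 0 h they were split, 5 higher and 4 lower. Srsf2, also known as SC35, had signals of 15766, 9279, 14518 and 7688 in the knockout-labelled arrays (0, 4, 8 and 24 h) and 8240.1, 11343, 14152 and 13838 in their wild-type-labelled counterparts. The knockout-labelled array was the highest of all 8 at 0 h and the lowest of all 8 at 24 h, and the 3 stimulated wild-type-labelled arrays were all above that of 0 h. Srsf9 had 4839, 4047, 4603 and 5194 in the knockout-labelled arrays (0, 4, 8 and 24 h) and 2876, 3185, 4159 and 5719 in their wild-type-labelled counterparts, with the knockout-labelled array higher up to 8 h and the wild-type-labelled array higher at 24 h. Its difference shrank through 0.75, 0.35, 0.15 and -0.14, and it was among the 5 members with the highest mean difference over the 4 times (0.28).

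In the probe sets in use, Srsf5 and Srsf6 were lower in knockout at all 4 times. Srsf5, known from regenerating rat liver, had signals of 12245, 17758, 14052 and 13951 in the knockout-labelled arrays (0, 4, 8 and 24 h) and 20587, 24582, 20672 and 17601 in their wild-type-labelled counterparts. Its differences were -0.75, -0.47, -0.56 and -0.34, and in both genotypes the 4 h array was the highest. Srsf6 had 7584, 8099, 9776 and 7748 in the knockout-labelled arrays (0, 4, 8 and 24 h) and 9656, 14117, 13746 and 10733 in their wild-type-labelled counterparts. The 3 stimulated wild-type-labelled arrays were above every knockout-labelled array, and the mean difference was -0.53 (SD 0.19 over the 4 times). Of the 3 tested probe sets of Srsf6, 2 were lower at 0 h, and the highest difference was 0.10. Srsf11 and Srsf3 were also lower at each time, with differences of -0.13, -0.69, -0.60 and -0.39 for Srsf11 and of -0.04, -0.06, -0.27 and -0.34 for Srsf3. Only 3 of the 6 tested probe sets of Srsf3 were lower at 0 h, with differences of -1.43 to 0.57. Srsf1, the founding member of the family, differed by 0.25, 0.13, -0.15 and -0.52, Srsf4 by 0.06, -0.11, -0.32 and -0.56 and Srsf10, a splicing repressor when dephosphorylated, by 0.18, -0.38, 0.49 and -0.61. In the wild-type-labelled arrays the SR group had a median change from 0 h of 0.25, 0.46 and 0.47, and in the knockout-labelled arrays of -0.21, -0.03 and -0.15. The knockout value at 24 h turned to 0.02 after median scaling, and that at 8 h to 0.20.

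**Figure D3:**
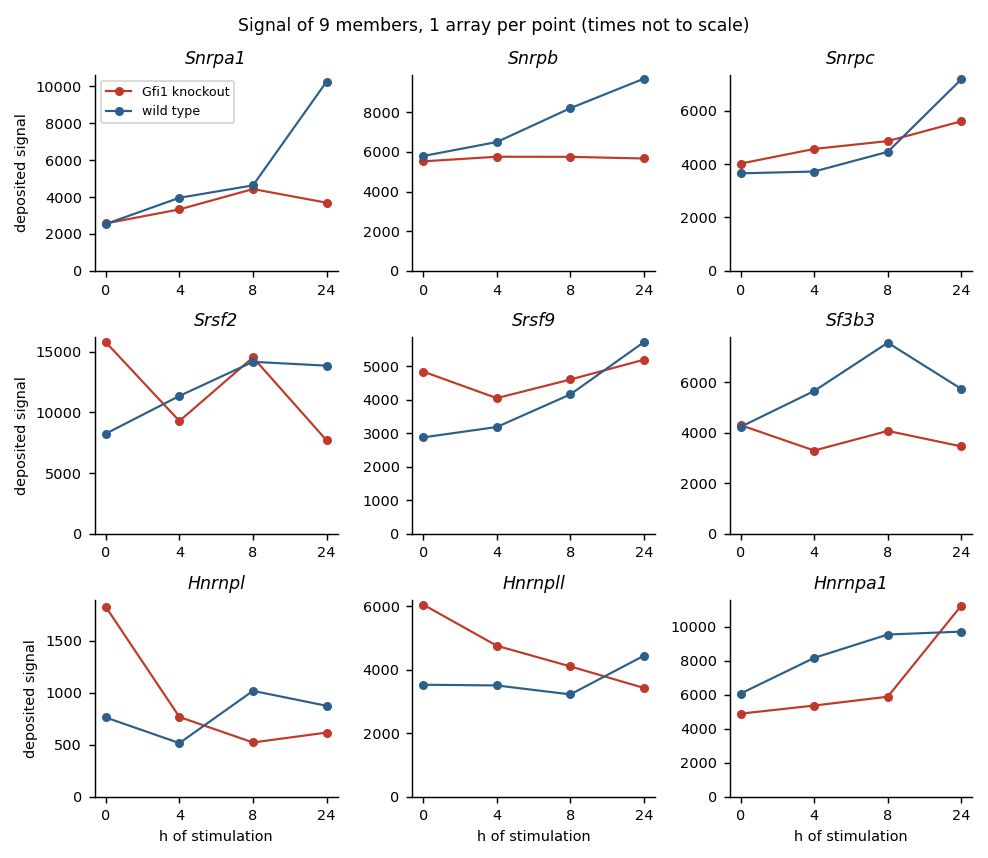
Deposited signal (vertical axis, starting at 0) against h of stimulation (times not to scale) for 9 genes, red for the knockout-labelled arrays and blue for the wild-type-labelled arrays, 1 array per point. For Snrpa1 the 2 lines are close up to 8 h and end at 3692 and 10241 at 24 h, and for Srsf2 and Hnrnpll they cross between 0 and 24 h.

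The SF3 complexes, which clamp the U2 snRNP to the branch point, were also lower as a group at 24 h. All 9 subunits had a lower signal in the knockout-labelled array, with a median of -0.58 (-0.45 after quantile normalization and -0.85 after median scaling) and values of -0.73 (Sf3b3) to -0.07 (Sf3b1). At 0 h 4 were higher and 5 lower, with a median of -0.05. Sf3a1, the SF3a subunit with ubiquitin-like and SURP domains, had signals of 1786, 1036, 1124 and 869 in the knockout-labelled arrays (0, 4, 8 and 24 h) and 1043, 954, 1454 and 1399.9 in their wild-type-labelled counterparts. Its difference moved through 0.78, 0.12, -0.37 and -0.69, with the knockout-labelled array higher at 0 h and lower at 24 h. The second probe set of Sf3a1 gave 0.47 at 0 h and only -0.03 at 24 h. Sf3a2 had differences of 0.20, 0.09, -0.12 and -0.67 and Sf3a3 of -0.07, -0.10, 0.58 and -0.66. Sf3a3 stood out by a low wild-type-labelled signal at 8 h, with 2954, 2539.8, 2659.8 and 2670.5 in the knockout-labelled arrays (0, 4, 8 and 24 h) and 3097, 2722, 1775 and 4222 in their wild-type-labelled counterparts.

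Sf3b3 and Sf3b1 had the lowest mean differences of all members. Sf3b3, the large beta-propeller subunit of SF3b, had signals of 4308, 3299.7, 4078 and 3464 in the knockout-labelled arrays (0, 4, 8 and 24 h) and 4239, 5662, 7576 and 5742 in their wild-type-labelled counterparts. The genotypes were level at 0 h and every stimulated knockout-labelled array was below every stimulated wild-type-labelled array, with differences of 0.02, -0.78, -0.89 and -0.73. Sf3b1, the HEAT-repeat subunit that holds the branch point, had 8524, 8799, 8133 and 8604 in the knockout-labelled arrays (0, 4, 8 and 24 h) and 13194, 14258, 13973 and 9016 in their wild-type-labelled counterparts. The knockout-labelled arrays were nearly flat and below all wild-type-labelled arrays, and the gap narrowed to -0.07 at 24 h, where the wild-type-labelled signal was at its lowest. Its other 2 probe sets gave -0.12 and -0.65 at 24 h. The remaining subunits were Sf3b2 with -0.57, 0.10, -0.43 and -0.58, Sf3b4 with 0.07, -0.24, -0.40 and -0.57, Sf3b5 with -0.05, 0.12, -0.11 and -0.50 and Sf3b6, which touches the branch point adenosine, with -0.11, -0.06, -0.15 and -0.28. Of the 4 tested probe sets of Sf3b2 only the 1 in use was lower at 0 h, and all 4 were lower at 24 h. The difference between genotypes varied least between times for Sf3b6, among all members (SD 0.0947 over the 4 differences).

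Of the hnRNPs, 13 of 18 were lower in knockout at 24 h. In the A, B and D group 4 of 5 were lower in the knockout-labelled array at 24 h, with a median of -0.26 (-0.49 after quantile normalization). Hnrnpa1, whose signals are given above, was lower at 0, 4 and 8 h and higher at 24 h, with differences of -0.31, -0.61, -0.70 and 0.21. The probe set in use carries the suffix _x_at, which marks probes that can match other transcripts, and 3 further probe sets of Hnrnpa1 list a second symbol, a pseudogene, so its values are uncertain. The probe sets in use for Srsf1, Hnrnpab, Hnrnpf and Sf3b2 carry the same suffix. Hnrnpdl differed by -0.48, -0.76, -0.65 and -0.06, with the smallest gap at 24 h. A second probe set had -0.09 at 24 h, and the other 4 had differences of -0.85 to -0.69. Hnrnpd, also known as AUF1 and a regulator of AU-rich mRNAs, had 6629.9, 6612, 7563 and 5892 in the knockout-labelled arrays (0, 4, 8 and 24 h) and 5046, 7405, 8266 and 8648 in their wild-type-labelled counterparts, with the wild-type-labelled signal at its highest at 24 h and the knockout-labelled signal at its lowest. Hnrnpab differed by 0.10, -0.25, -0.29 and -0.26 and Hnrnpa2b1 by -0.10, 0.00, -0.05 and -0.36. Of the 4 tested probe sets of Hnrnpa2b1 only the 1 in use was lower at 24 h, and the others reached up to 0.23.

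The 4 F and H proteins, which bind runs of G, had both signs at 24 h, with 2 lower, 2 higher and a median of 0.03 that turned to -0.25 after median scaling. Hnrnpf had differences of -0.28, -0.09, -0.42 and 0.33 in its brightest probe set, and its other 3 were lower at 24 h (-0.63, -0.55 and -0.02). The differences were -0.10, -0.14, -0.36 and -0.12 for Hnrnph1 and 0.12, -0.29, -0.10 and -0.06 for Hnrnph2. Hnrnph3 had 1213, 1370.4, 1112 and 1448 in the knockout-labelled arrays (0, 4, 8 and 24 h) and 2016, 1569, 1101 and 1337 in their wild-type-labelled counterparts, and its difference in response at 24 h, 0.85, was the most positive of all members. The wild-type-labelled 0 h array was its highest and the wild-type-labelled 8 h array its lowest.

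Hnrnpl and Hnrnpll, the pair linked to CD45 exon repression, were higher in the knockout-labelled array before stimulation and lower at 24 h. Hnrnpl had signals of 1823, 765, 519.8 and 615 in the knockout-labelled arrays (0, 4, 8 and 24 h) and 759.9, 514, 1016 and 872 in their wild-type-labelled counterparts. The knockout-labelled 0 h array was the highest by a wide margin, and the stimulated arrays of both genotypes overlapped. The difference was 1.26, 0.57, -0.97 and -0.50 in log2. It is measured by a single probe set, and its log2 change from 0 to 24 h over both genotypes, -0.68 (SE 0.55, limma adjusted p = 0.524), became 0.10 without the knockout-labelled 0 h array. Hnrnpll had 6056, 4758, 4106 and 3427 in the knockout-labelled arrays (0, 4, 8 and 24 h) and 3528, 3506, 3223 and 4445 in their wild-type-labelled counterparts. The knockout-labelled signal was lower at each later time, and the wild-type-labelled arrays were near one another up to 8 h and highest at 24 h. Its differences were 0.78, 0.44, 0.35 and -0.38, and its second probe set gave 0.80 at 0 h and -0.24 at 24 h.

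Of the other 7 hnRNPs, 5 were lower in the knockout-labelled 24 h array, with a median of -0.18. Hnrnpu, a nuclear scaffold protein, had 15059, 13962, 14159 and 11968 in the knockout-labelled arrays (0, 4, 8 and 24 h) and 13949, 18630.1, 22060.1 and 19504 in their wild-type-labelled counterparts. Every stimulated wild-type-labelled array was above every knockout-labelled array, with differences of 0.11, -0.42, -0.64 and -0.70. Hnrnpr was lower at each time in the probe set in use, with differences of -0.03, -0.37, -0.32 and -0.63. Of its 3 tested probe sets, 2 were lower at 0 h, and the highest difference was 0.49. Hnrnpc, which binds uridine tracts in nascent RNA, had 10731, 13863, 13647 and 16750.1 in the knockout-labelled arrays (0, 4, 8 and 24 h) and 16903, 19605, 17348 and 15591 in their wild-type-labelled counterparts, so the knockout-labelled array was lower up to 8 h and slightly higher at 24 h. The second probe set of Hnrnpc was lower at 24 h (-0.88). Hnrnpk, a poly-C binding protein, differed by -0.03, -0.42, -0.13 and 0.03, Hnrnpm by -0.27, 0.05, 0.14 and -0.27, Hnrnpul1 by 0.23, 0.24, -0.41 and -0.18 and Hnrnpul2 by 0.13, 0.27, -0.13 and -0.11.

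**Figure D4:**
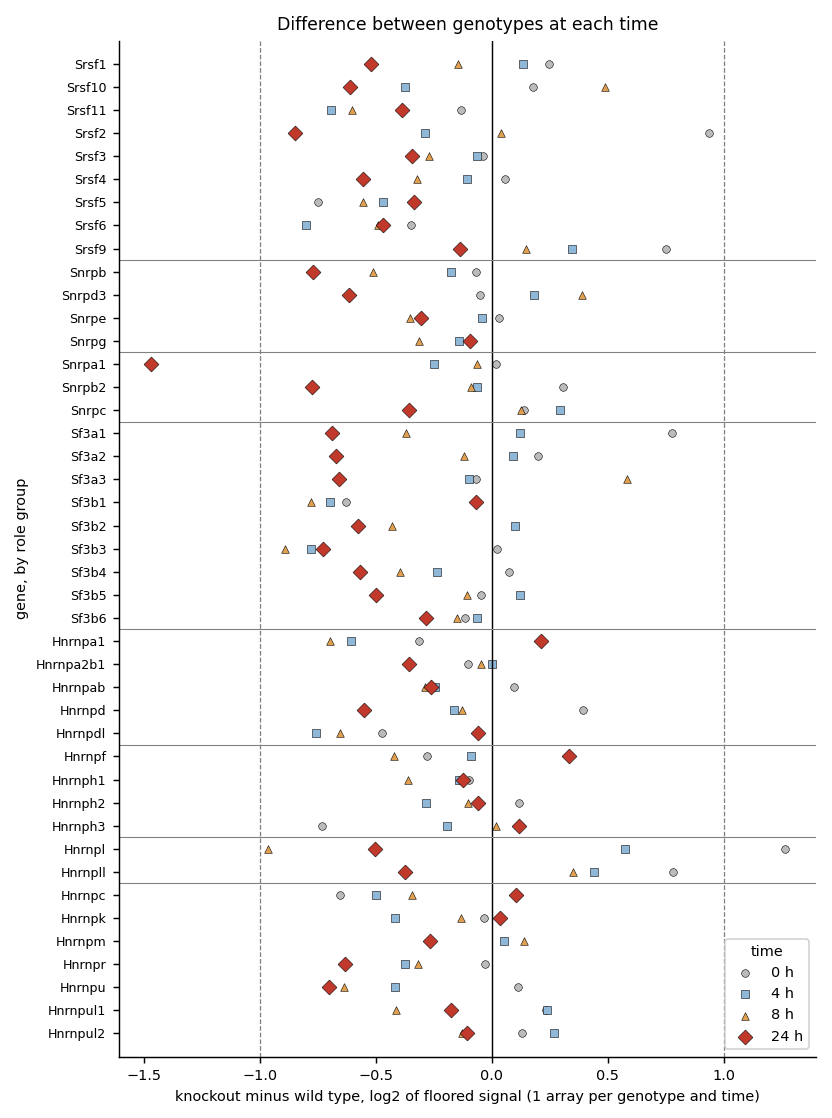
Knockout minus wild type in log2 floored signal for each of the 43 genes (rows, by role group), with grey circles for 0 h, blue squares for 4 h, orange triangles for 8 h and red diamonds for 24 h, 1 array per genotype and time; dashed lines mark 2-fold. At 24 h 38 of the diamonds are left of 0, and the 9 SR and 9 SF3 genes are all there.

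Several probe sets of 1 gene gave a second reading of the same RNA. The 44 genes have 115 probe sets, of which 111 passed the filter on low signals, and 29 genes have more than 1. Over the 111, the median difference between genotypes was 0.02, -0.21, -0.31 and -0.48 at 0, 4, 8 and 24 h, and 54, 77, 86 and 97 were lower in the knockout-labelled array, where 49%, 51.3%, 54.1% and 45.6% of all tested probe sets were. At 24 h 42 were at least 1.5-fold lower and 2 higher, and 11 were at least 2-fold lower, against 15%, 17.6% and 4.87% of all tested probe sets. Probe sets of a gene share its RNA and are no replicates. All tested probe sets of a gene had the same sign at 24 h in 21 of the 29 genes, and at 0 h in 16. The 8 with both signs at 24 h were Hnrnpa1, Hnrnpa2b1, Hnrnpab, Hnrnpc, Hnrnpf, Hnrnpk, Snrpd3 and Srsf2. The 3 probe sets of Snrpa1 gave -1.47, -0.82 and -1.03 at 24 h, the 6 of Srsf1 -1.01 to -0.30, the 4 of Srsf10 -1.12 to -0.61 and the 3 of Hnrnpr -1.15 to -0.63. For Hnrnpa1 they disagreed, with 0.21 and 0.22 for a pair of bright probe sets and -0.95 for a dim one. For Snrpd3 the other 2 gave 0.02 and 0.73 with signals near the floor, and for Srsf2 the dimmest gave 0.65 and the other 3 -0.85 to -0.64.

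**Figure D5:**
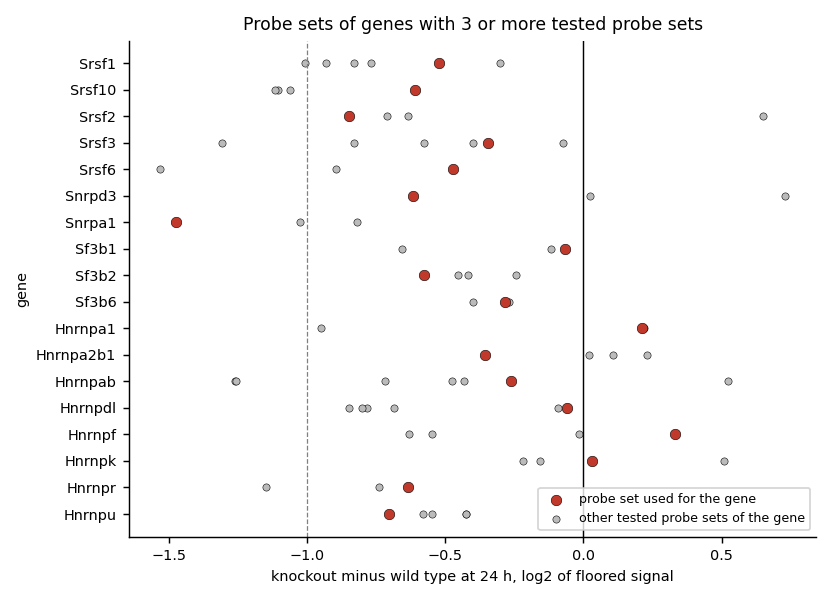
Knockout minus wild type at 24 h in log2 floored signal for each tested probe set of the 18 genes with at least 3 (rows), red for the probe set that stands for the gene and grey for the others; the dashed line marks 2-fold lower. Of the 75 probe sets drawn, 63 lie left of 0.

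Splicing genes outside the chosen families, from 5 lists that share no gene with them, had values of the same sign at 24 h. The lists name 79 genes and 66 were tested. limma called 0 of them in any contrast of time, with 0, 8 and 12 at an unadjusted p under 0.05 at 4, 8 and 24 h against 0 h, and 2 between 8 and 24 h, where 14.4%, 20.2%, 21.9% and 9.06% of all genes were. Lower in the knockout-labelled array were 31, 53, 52 and 57 of 66 at 0, 4, 8 and 24 h (48.5%, 49.3%, 54.4% and 45.7% of all genes), with medians of 0.02, -0.27, -0.41 and -0.41. At 24 h the median was -0.40 after quantile normalization and -0.68 after median scaling. The snRNP assembly list (10 tested) had a median of -0.57 at 24 h and the list of tri-snRNP and Lsm genes (15) one of -0.65. The other machinery (16) had -0.36 and the other regulators (19) -0.38.

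The single genes of these lists with the largest differences at 24 h were Gemin8, Sfpq, Lsm2 and Eftud2. Gemin8, a subunit of the SMN complex that loads Sm proteins on snRNAs, had 487, 181, 275 and 339 in the knockout-labelled arrays (0, 4, 8 and 24 h) and 387, 272, 389 and 1067 in their wild-type-labelled counterparts. The wild-type-labelled 24 h array was its highest. Eftud2, a GTPase of the U5 snRNP, had 5510.4, 3581, 4433 and 3815 in the knockout-labelled arrays (0, 4, 8 and 24 h) and 3987, 4552, 6364 and 7816 in their wild-type-labelled counterparts, with the wild-type-labelled signal above its 0 h value at all later times. Lsm2, a subunit of the ring on U6 RNA, had 2245, 1357, 1205 and 932 in the knockout-labelled arrays (0, 4, 8 and 24 h) and 1099, 897, 1196 and 1971 in their wild-type-labelled counterparts, which crossed from higher to lower in the knockout-labelled arrays. Sfpq, a paraspeckle protein, had 6205, 5050.3, 3675 and 2853 in the knockout-labelled arrays (0, 4, 8 and 24 h) and 5374, 5793, 5789.8 and 6189 in their wild-type-labelled counterparts, lower at each later time in the knockout-labelled arrays and nearly level in the wild-type-labelled ones.

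The SR protein kinases followed another course. Their 6 genes had a median difference of -0.80, -0.89 and -0.85 at 0, 4 and 8 h and of -0.02 at 24 h, which was -0.10 after quantile normalization and -0.30 after median scaling. Clk1, a nuclear kinase that phosphorylates SR proteins, had 4718, 4825, 4114 and 5902 in the knockout-labelled arrays (0, 4, 8 and 24 h) and 10678, 12912, 8834 and 4704 in their wild-type-labelled counterparts. The knockout-labelled arrays were at less than the wild-type-labelled level up to 8 h and above it at 24 h, where the wild-type-labelled signal was at its lowest. Srpk2, a cytoplasmic SR protein kinase, had the lowest adjusted p of all 66 genes, with 1254, 959, 559 and 509 in the knockout-labelled arrays (0, 4, 8 and 24 h) and 1913, 842, 475 and 492 in their wild-type-labelled counterparts. Both genotypes were lower at 8 and 24 h than at 0 h, with a log2 change at 24 h of -1.63 (SE 0.33, limma adjusted p = 0.0505), which did not pass.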

How the data were processed

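RNA of murine splenic T cells was measured on 8 arrays, 1 per genotype and time. Per the labels, biotin-labelled cRNA was made from TRIzol-extracted RNA, and per the submitters' processing notes the deposited intensity values (signal per probe set) came from GCOS 1.4 and MAS5, with no word on what each did. The table held 22690 probe sets, 64 of them controls, with trimmed means (2% off each end) of 1000.4 to 1000.5 per array, and 0 per-sample columns were left unused. Gene symbols came from the platform annotation.

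Signals were used as deposited. Values under 141.88, the median over arrays of the 40th percentile, were set to this floor before log2. Probe sets above it on at least 2 arrays (15062, standing for 8430 genes) entered the test with limma 3.58.1 (R 4.3.3) with a variance trend, 3 residual and 3.88 prior degrees of freedom. The number of arrays limits the precision. Genotypes were compared by size only. The members, lists and naming rule (the 5 largest differences each way per comparison, extremes per role group, and Hnrnpll) were chosen with earlier results of these data known. The lists hold genes also expressed outside their named cell type or pathway. Alternatives were other scalings, floors and folds, a pseudocount, no filter, the median of probe sets, no genotype or trend term, and leaving out arrays. Promoter windows came from RefSeq. Tables and figures used python 3.11.15, numpy 2.4.6, pandas 2.3.3 and matplotlib 3.10.9. The limma test of time against 0 h was checked on simulated data with the same change in both genotypes. The comparisons of genotypes were not checked in this way.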

Additional observations from a re-analysis of the deposited data

Results flagged for a closer look

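Srsf2 moved in opposite directions in the genotypes between 0 and 24 h. Its signals were 15766 and 7688 at 0 and 24 h in the knockout-labelled arrays, a log2 change of -1.04, and 8240 and 13838 in the wild-type-labelled arrays, a log2 change of 0.75. The change in knockout minus that in wild type was -1.78. Of the 43 genes, Srsf2 alone moved at least 1.5-fold one way in one genotype and at least 1.5-fold the other way in the other genotype over the same interval. With 1 array per genotype and time the difference was not tested. Over its 4 tested probe sets the change from 0 to 24 h was -1.04 to 0.91 in the knockout-labelled arrays and 0.32 to 2.19 in the wild-type-labelled arrays.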

How the results depend on the processing

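No paired analysis was possible because the number in the titles differs between the genotypes and is the same at all times within each, so a block on it is the genotype term that the model of time already holds. For the change from 0 to 24 h, limma called 1 gene after median scaling (Hnrnpa1, adjusted p = 0.0472), and 0 to 1 when an array was left out (Snrpa1 without the knockout-labelled 24 h array, Hnrnpa1 without the wild-type-labelled 24 h array). Over all alternatives, the limma adjusted p was 0.0315 to 0.360 for Hnrnpa1 and 0.0425 to 0.454 for Snrpa1. Hnrnpdl also passed the p without the wild-type-labelled 24 h array but stayed under 2-fold. The other alternatives called 0 in all 4 contrasts of time. Of 510 alternative estimates for 30 single changes, 500 kept sign and side of the threshold and 6 turned sign. Srsf6 at 4 h became -0.30 with the median over probe sets. With an array left out, Sf3a1 at 4 h ran from -1.002 to 0.088, Hnrnpl at 8 h from -1.48 to 0.085 (and was 0.01 without the knockout-labelled 8 h array), Hnrnpl at 24 h from -1.47 to 0.10 and Sf3a2 at 24 h from -0.69 to 0.034. The upper ends came without the knockout-labelled 0 h array, for Sf3a2 without the knockout-labelled 24 h array.

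Counts of genes at least 2-fold apart were small and moved with the settings. At 1.5-fold, 5 genes were higher and 4 lower in knockout at 0 h, and lower were 6 at 4 h, 7 at 8 h and 12 at 24 h. Quantile normalization put 2 higher at 0 h. Median scaling put 1 lower at 8 h and 5 lower at 24 h. The median over probe sets put 2 higher at 0 h, 1 lower at 8 h and 3 lower at 24 h. A floor from the 20th percentile put 1 lower at 0 h and 1 higher at 24 h. In both cases this was Snrpn, whose signals were all under the floor in use, and the other 43 genes were unchanged by the lower floor. In the difference in response, a 1.5-fold rule gave 1 higher and 4 lower at 4 h, 2 higher and 7 lower at 8 h, and 3 higher and 18 lower at 24 h. The lower floor gave 1 higher at 8 h and 1 at 24 h, Snrpn in both cases. The median over probe sets gave 4 lower at 8 h, and median scaling 13 lower at 24 h. The cause of the other shifts was not tested. The number of arrays limits the precision, and 43 of the 44 genes were above the floor on all 8.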
